A study of Homo sapiens with 12 samples.

Results

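The genes described here are 10 established transcriptional targets of Wnt/beta-catenin signalling, AXIN2, NKD1, NOTUM, ZNRF3, RNF43, LGR5, SP5, TCF7, LEF1 and ASCL2. They were chosen by symbol, with earlier results of these data known, and all 10 were found among the 58233 genes of the count table. RNA was sequenced from HCT116 cells, a human colorectal carcinoma line that carries a stabilising mutation of beta-catenin. Parental HCT116 Tet-OsTIR1 cells, which contain the rice F-box protein TIR1 under a tetracycline-inducible promoter, were compared with SDS22-degron cells. The SDS22-degron cells were derived from them and carry mAID-mClover on both alleles of endogenous SDS22, a regulator of protein phosphatase 1 encoded by PPP1R7. This line was expanded from an isolated colony, so that a difference between the lines cannot be told apart from a difference between clones. Doxycycline (Dox) switches on TIR1, and the auxin IAA then directs the tagged SDS22 to degradation. Each line was left untreated or treated with 2 µg/ml Dox and 500 µM IAA for 48 h. The Dox/IAA-treated parental cells therefore received both compounds without a tag on SDS22. The 4 groups had 3 libraries each, which the labels call biological replicates, and 12 in all.

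In the canonical Wnt pathway, a secreted ligand binds a Frizzled receptor and an LRP co-receptor at the cell surface, and the complex that marks beta-catenin for destruction is inhibited. Beta-catenin then enters the nucleus and joins TCF and LEF proteins on DNA. Several of its best known target genes encode inhibitors of the pathway itself, and they are therefore widely used as readouts of its activity. AXIN2 and NKD1 act inside the cell on the destruction complex and on Dishevelled. NOTUM is secreted and removes the lipid of Wnt ligands, while ZNRF3 and RNF43 are membrane ubiquitin ligases that clear Frizzled receptors. LGR5 is a receptor for R-spondins and marks stem cells of the intestinal crypt. SP5, TCF7, LEF1 and ASCL2 encode nuclear transcription factors. In colorectal carcinoma cells the pathway is usually active without ligand.

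The libraries held 12133915 to 14657508 counted reads, and 16657 genes passed the filter on low counts. Epithelial markers were present in every library, with a summed level of 6 markers of 3483 to 3865 CPM (counts relative to the TMM-normalized library size) in untreated and 2656 to 3136 CPM in Dox/IAA-treated parental cells, without overlap, and of 3415 to 4218 CPM and 3318 to 3804 CPM in SDS22-degron cells. The markers moved in both directions with Dox/IAA. KRT18 fell in parental and SDS22-degron cells, with log2 fold changes of -0.47 (adjusted p = 0.0003903, edgeR) and -0.29 (0.007167), as did KRT8 with -0.39 (0.005375) and -0.33 (0.008497). CDH1, which encodes E-cadherin, rose by 0.36 (0.04499) and 1.00 (4.942e-06), with a called difference of the responses of 0.64 (0.029). Of 5 fibroblast markers, COL1A2, DCN and LUM had 0 counts throughout, while the summed level, nearly all of it COL1A1, was 9.96 to 13.6 CPM in untreated and 17.2 to 22.9 CPM in Dox/IAA-treated parental cells, and 13.8 to 15.8 CPM and 21.3 to 31.7 CPM in SDS22-degron cells. The endothelial markers CDH5 and PECAM1 were at or near 0 (PECAM1 up to 0.0824 CPM), while VWF was higher in every treated SDS22-degron library (1.07 to 1.65 CPM) than in any other (0.237 to 0.802 CPM), with log2 fold changes of 1.68 between the treated lines (adjusted p = 0.003231) and 1.05 with Dox/IAA in SDS22-degron cells (0.02614). The part of these marker changes in the results below was not tested. The summed level of 5 blood markers did not exceed 0.704 CPM in any library. PPP1R7 mRNA was between 40.1 and 51.1 CPM in all 12 libraries, which does not check the labels because the degron acts on the protein.

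Of the 10 target genes, 7 passed the filter and were tested, and the other 3 were at or near 0. LEF1 and ASCL2 had 0 counts in all 12 libraries. A count of 0 allows up to 3 counts, which corresponds to 0.206 to 0.253 CPM depending on the library. LGR5 had 0 to 2 counts per library and 6 in total. Untreated parental cells had 1 of these counts, Dox/IAA-treated parental cells 2, untreated SDS22-degron cells 0 and Dox/IAA-treated SDS22-degron cells 3, so that no difference in LGR5 was detectable at this depth. In HCT116 cells the stem cell receptor of the list and 2 of its 4 nuclear factors were thus not detected above this limit in any group. Per kilobase of gene length, the tested gene with the highest mean in untreated parental cells was RNF43 with 9.24 ± 0.436 CPM per kb (SD, n = 3). It was followed by NOTUM with 6.89 ± 0.704, ZNRF3 with 6.06 ± 0.839, TCF7 with 3.47 ± 0.261, AXIN2 with 2.55 ± 0.603, SP5 with 0.825 ± 0.291 and NKD1 with 0.796 ± 0.0811 CPM per kb. NOTUM and ZNRF3 differed by less than the sum of their SDs, as did SP5 and NKD1. The length used was the deposited length of each gene, such as 17425 bases for NKD1 and 2060 bases for SP5. The lengths of the transcripts expressed here were not measured, and the order depends on the lengths used. The order was different after Dox/IAA treatment of SDS22-degron cells, with NOTUM at 21.04 ± 0.699 and ZNRF3 at 8.17 ± 0.826 CPM per kb, both above RNF43 at 7.06 ± 1.31 CPM per kb, although ZNRF3 and RNF43 differed by less than the sum of their SDs.

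**Figure D1:**
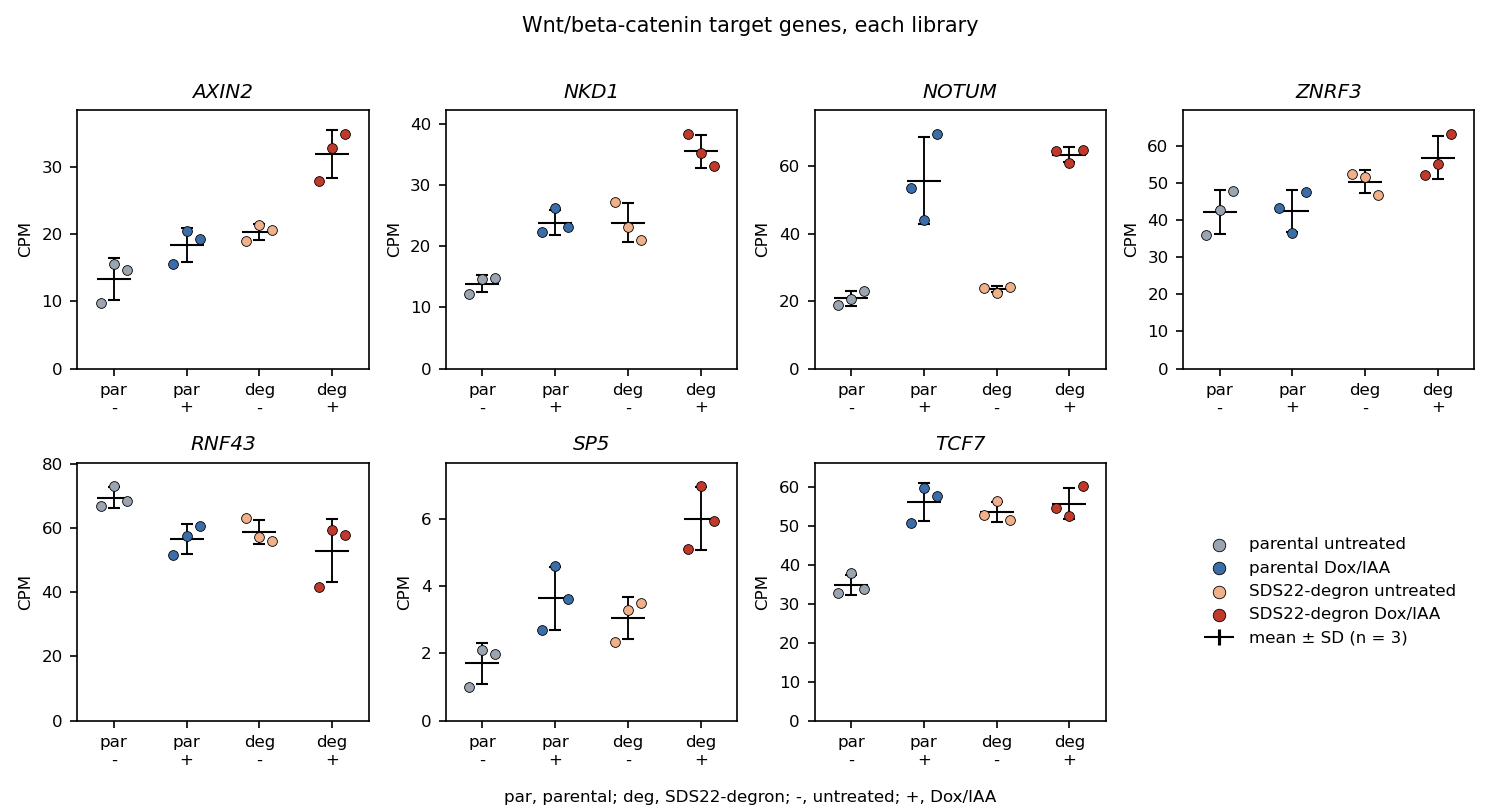
TMM-normalized CPM (linear axis from 0) of the 7 tested target genes in each of the 12 libraries, by group. Points are libraries and bars are the mean ± SD of 3 libraries. AXIN2, NKD1 and SP5 were lowest in all untreated parental libraries and highest in all Dox/IAA-treated SDS22-degron libraries, whereas NOTUM followed Dox/IAA in both lines and TCF7 was low in untreated parental cells only.

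The first question was whether the lines differed before any treatment. In untreated cells, 4 of the 7 tested target genes (AXIN2, NKD1, SP5 and TCF7) were higher in SDS22-degron than in parental cells and 0 were lower, whereas 13.2% of all tested genes were higher and 15% lower. The log2 fold changes of all 7, called or not, had a median of 0.61, against 0.0034 for all tested genes. The medians of the next comparisons are over all 7 as well. In these bulk libraries, a change of RNA per cell and a change in the share of cells that express a gene cannot be told apart. Genes are called higher or lower here at an adjusted p under 0.05 (edgeR quasi-likelihood F test, Benjamini-Hochberg adjustment over all 16657 genes). The second question was how each line responded to Dox and IAA. In parental cells, which have no degron, 5 of the 7 (AXIN2, NKD1, NOTUM, SP5 and TCF7) rose with Dox/IAA and RNF43 fell, against 15.9% of all tested genes that rose and 15.7% that fell, and the median log2 fold change was 0.69, against 0.0015 for all tested genes. In SDS22-degron cells, 4 of the 7 (AXIN2, NKD1, NOTUM and SP5) rose and 0 fell, against 26.0% and 25.5% of all tested genes, with a median of 0.58 against 0.0046. Most of these genes thus changed with Dox/IAA in cells whose SDS22 carries no tag.

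The third question was whether the lines differed under treatment, where SDS22 is degraded in SDS22-degron cells alone. In treated cells, 4 of the 7 (AXIN2, NKD1, ZNRF3 and SP5) were higher in SDS22-degron than in parental cells and 0 were lower, against 21.8% and 23.1% of all tested genes. The log2 fold changes of all 7 had a median of 0.42, against -0.0056 for all tested genes. The interaction of line and Dox/IAA, which tests whether the response to the compounds differed between the lines, was called for 0 of the 7 upwards and for TCF7 downwards, against 6.03% and 8.35% of all tested genes. At an unadjusted p under 0.05 of the same edgeR test, the counts of 0 stayed at 0, except that RNF43 was then lower in untreated SDS22-degron cells, and DESeq2 gave 0 in each of these cases. For the other 6 genes the response was not shown to differ between the lines. All of these comparisons share groups of libraries, so that their values stand side by side and are not independent of each other.

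The changes were moderate in size. The stricter cut-off that the study used for its own lists was an unadjusted p under 0.05 with an absolute log2 fold change above 1. The study applied it to p-values of the likelihood ratio test of edgeR between the treated lines. Here it was applied to the quasi-likelihood F test in each comparison. By this cut-off, NOTUM and SP5 passed for Dox/IAA in parental cells, where 3.14% of all tested genes did. NOTUM was the only target gene to pass for Dox/IAA in SDS22-degron cells, where 7.83% of all tested genes passed. By the same cut-off, 0 of the 7 passed between the untreated lines (4.14% of all tested genes), between the treated lines (6.63%) or in the interaction (3.60%).

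**Figure D2:**
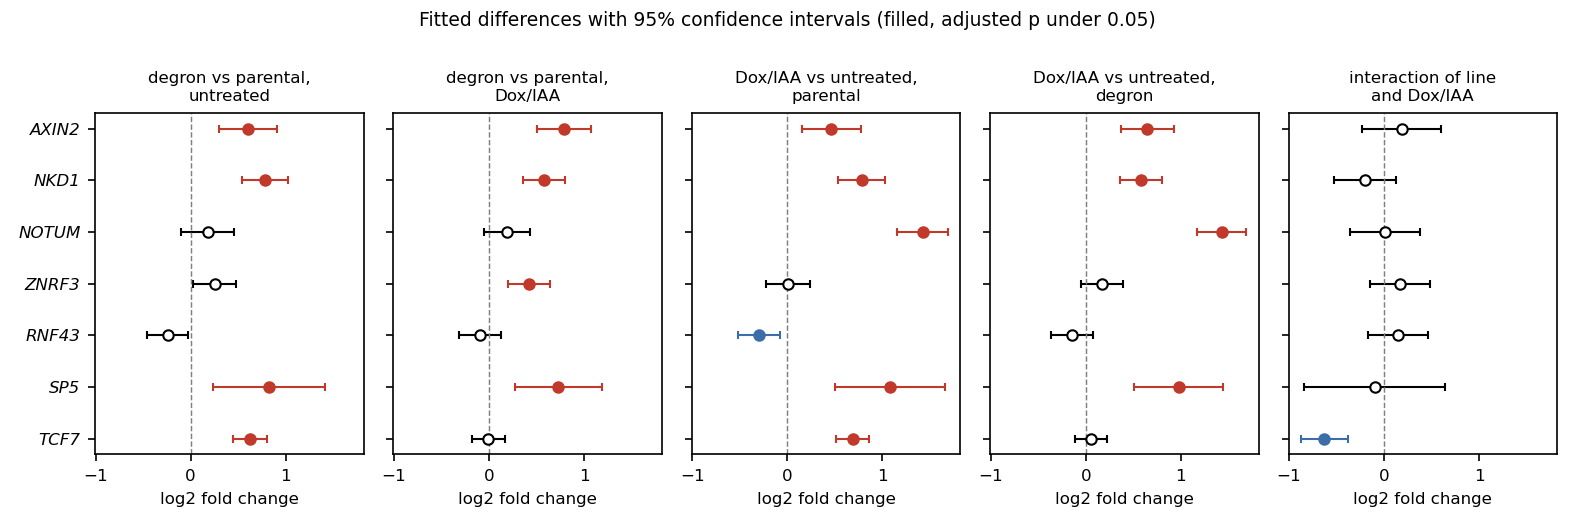
Fitted log2 fold changes (points) with 95% confidence intervals (bars) of the 7 tested target genes in 5 comparisons. Filled red and blue points are higher or lower at an adjusted p under 0.05 and open points are not called. NOTUM had a log2 fold change of 1.42 and 1.43 with Dox/IAA in parental and in SDS22-degron cells, and TCF7 was the only gene whose interaction was called.

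AXIN2, the scaffold of the destruction complex that beta-catenin itself induces, was lowest in untreated parental cells and highest in SDS22-degron cells treated with Dox/IAA. The gene lies on the minus strand at chr17:65528563-65561647 (GRCh38, as all positions here). Untreated parental libraries had 9.71, 15.6 and 14.7 CPM and Dox/IAA-treated parental libraries 15.6, 20.5 and 19.2 CPM. Untreated SDS22-degron libraries had 19.03, 21.4 and 20.6 CPM and Dox/IAA-treated SDS22-degron libraries 27.9, 32.8 and 34.9 CPM. All treated SDS22-degron libraries lay above all others, and the untreated SDS22-degron libraries lay above the untreated parental ones, while the highest untreated and the lowest treated parental library met at 15.6 CPM. AXIN2 was 1.52-fold higher in untreated SDS22-degron than in untreated parental cells (95% confidence interval 1.23 to 1.88, adjusted p = 0.004144). Between the treated lines it was 1.73-fold higher (1.42 to 2.11, adjusted p = 0.0001185). With Dox/IAA it rose 1.57-fold in SDS22-degron cells (1.29 to 1.90, adjusted p = 0.0005287). The rise in parental cells was 1.38-fold (1.11 to 1.71, adjusted p = 0.02306). This last call was lost when any of 3 libraries was left out, with adjusted p = 0.1415 (log2 fold change 0.28 in place of 0.46) without untreated replicate 1, 0.07479 without Dox/IAA replicate 2 and 0.07336 without Dox/IAA replicate 3. The ratio of the Dox/IAA responses in the 2 lines was 1.14 (0.849 to 1.52, adjusted p = 0.5901).

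NKD1, which binds Dishevelled and restrains Wnt signalling, lies on the plus strand at chr16:50548330-50649249. Its level was 12.2, 14.6 and 14.7 CPM in untreated and 22.3, 26.2 and 23.05 CPM in Dox/IAA-treated parental cells. In SDS22-degron cells it was 27.3, 23.2 and 20.95 CPM without and 38.4, 35.2 and 33.0 CPM with treatment. The treated parental and the untreated SDS22-degron libraries overlapped, whereas the untreated parental libraries lay below and the treated SDS22-degron libraries above all others. NKD1 was 1.71-fold higher in untreated SDS22-degron cells (95% confidence interval 1.45 to 2.03, adjusted p = 6.087e-05) and 1.49-fold higher in treated ones (1.28 to 1.74, adjusted p = 0.0002274) than in the matching parental cells. It rose 1.72-fold with Dox/IAA in parental cells (1.45 to 2.03, adjusted p = 7.896e-05). The rise in SDS22-degron cells was 1.49-fold (1.28 to 1.74, adjusted p = 0.0001604). The ratio of the responses was 0.869 (0.692 to 1.09, adjusted p = 0.4300). The 726 tested genes of chromosome 16 went the other way between the lines, with median log2 fold changes of -0.30 in untreated and -0.31 in treated cells, and the part of this in the NKD1 values was not tested. For the chromosomes of the other 6 genes, the corresponding medians were between 0.05 and 0.11.

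NOTUM, the secreted enzyme that inactivates Wnt ligands, rose with Dox/IAA in both lines. The gene lies on the minus strand at chr17:81952507-81961840. Untreated libraries had 18.7, 20.7 and 22.99 CPM in parental and 23.9, 22.5 and 24.3 CPM in SDS22-degron cells. Treated libraries had 53.6, 44.0 and 69.7 CPM in parental and 64.7, 61.1 and 64.8 CPM in SDS22-degron cells. Every treated library lay above every untreated library, while the lines overlapped under either condition. The rise was 2.68-fold in parental cells (95% confidence interval 2.23 to 3.22, adjusted p = 4.515e-07) and 2.70-fold in SDS22-degron cells (2.25 to 3.23, adjusted p = 3.552e-08). It was the largest rise of the 7 tested target genes in both lines. The ratio of these responses was 1.01 (0.778 to 1.30, adjusted p = 0.9779). Between the lines NOTUM was 1.13-fold higher in untreated SDS22-degron cells (0.932 to 1.37, adjusted p = 0.3499) and 1.14-fold higher in treated ones (0.962 to 1.35, adjusted p = 0.2011). The latter difference was called when replicate 3 of the treated parental cells, the highest library at 69.7 CPM, was left out (log2 fold change 0.38, adjusted p = 0.005191).

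The membrane ubiquitin ligases ZNRF3 and RNF43 are related proteins with the same known role, the removal of Frizzled receptors. ZNRF3, on the plus strand at chr22:28883592-29057487, had 36.1, 42.7 and 47.8 CPM in untreated and 43.3, 36.5 and 47.6 CPM in treated parental cells. In SDS22-degron cells it had 52.6, 51.7 and 46.8 CPM without and 52.2, 55.1 and 63.3 CPM with Dox/IAA. The treated lines did not overlap, and ZNRF3 was 1.34-fold higher in treated SDS22-degron than in treated parental cells (95% confidence interval 1.146 to 1.56, adjusted p = 0.003596). In untreated cells the libraries overlapped, and the ratio of SDS22-degron to parental cells was 1.19 (1.02 to 1.40, adjusted p = 0.08601). Without replicate 3 of the untreated parental cells, the highest library there, this difference was called as well (adjusted p = 0.03303), and it was also called with the replicate number as a block (log2 fold change 0.26, adjusted p = 0.04316), which raised the count of target genes higher in untreated SDS22-degron cells from 4 to 5. The response of ZNRF3 to Dox/IAA was 1.01-fold in parental (0.859 to 1.18, adjusted p = 0.9600) and 1.13-fold in SDS22-degron cells (0.968 to 1.32, adjusted p = 0.1761). The ratio of these responses was 1.12 (0.900 to 1.40, adjusted p = 0.5108).

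RNF43, on the minus strand at chr17:58352500-58417595, was the only tested target gene with its highest level in untreated parental cells, at 66.8, 73.0 and 68.2 CPM. Treated parental cells had 51.5, 57.6 and 60.5 CPM, untreated SDS22-degron cells 62.9, 57.2 and 55.8 CPM and treated SDS22-degron cells 41.6, 59.5 and 57.7 CPM. All untreated parental libraries lay above the other 9. With Dox/IAA in parental cells the ratio was 0.815 (95% confidence interval 0.700 to 0.949, adjusted p = 0.03886), which was the only fall called among the tested target genes in the 4 comparisons of groups. This call was lost in 8 of 16 alternative fits, which include the omission of any library compared except Dox/IAA replicate 3, with an adjusted p of up to 0.1663. In untreated cells the ratio of SDS22-degron to parental was 0.845 (0.726 to 0.984, adjusted p = 0.09126), which did not pass although the libraries did not overlap. The other ratios were 0.903 for Dox/IAA in SDS22-degron cells (0.774 to 1.05, adjusted p = 0.2552) and 0.936 between the treated lines (0.802 to 1.09, adjusted p = 0.4939). Here the treated SDS22-degron libraries spread most, with replicate 1 below the others. RNF43 overlaps SUPT4H1 on the same strand, a gene with 13087 counts over all libraries. SUPT4H1 had log2 fold changes of 0.03 (adjusted p = 0.7402) for Dox/IAA in parental cells and 0.01 (adjusted p = 0.9552) between the untreated lines. It was called higher for Dox/IAA in SDS22-degron cells (0.26, adjusted p = 0.00235) and between the treated lines (0.23, adjusted p = 0.006108). The part of shared reads in the RNF43 values was not tested.

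SP5 and TCF7 were the only nuclear factors of the list with enough counts to be tested. The 250 bases before an annotated start of each are shown, because these genes moved between groups. TCF and LEF proteins bind short sites that begin with CTTTG. RefSeq (GRCh38.p14) promoter windows were at hand for 4 of the 10 genes, SP5, TCF7, LEF1 and RNF43, with 6 windows in all. The SP5 window is on the plus strand at chr2:170715087-170715336, and the window of an inner start of TCF7 is on the plus strand at chr5:134123368-134123617. The TCF7 window shown is the one with a match, while that at chr5:134115363-134115612 held 0 and is not shown. Capitals mark matches to CTTTGAA or CTTTGAT, or to CTTTGTA or CTTTGTT, on either strand, none of which overlap each other.
SP5: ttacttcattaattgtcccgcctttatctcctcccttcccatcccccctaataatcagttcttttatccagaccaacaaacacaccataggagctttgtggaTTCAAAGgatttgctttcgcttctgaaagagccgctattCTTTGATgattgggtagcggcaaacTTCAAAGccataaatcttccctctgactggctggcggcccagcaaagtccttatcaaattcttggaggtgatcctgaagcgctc
TCF7: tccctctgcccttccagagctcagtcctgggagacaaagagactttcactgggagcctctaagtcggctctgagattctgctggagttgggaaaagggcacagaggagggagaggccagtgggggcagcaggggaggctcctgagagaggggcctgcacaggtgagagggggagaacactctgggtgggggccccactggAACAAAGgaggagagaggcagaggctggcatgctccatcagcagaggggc
The SP5 window held 3 matches, which begin 148, 109 and 84 bases before the start. The TCF7 window held 1 match, 50 bases before the start, and the other 4 windows of these genes held 0. Of all 34943 RefSeq windows of this length, 12.0% held at least 1 match and 0.123% held at least 3. A match of letters is a description of the sequence and not a measured binding site.

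SP5, a zinc finger repressor that is switched on by beta-catenin, had the fewest counts of the tested genes, 12 to 90 per library, and its intervals were the widest. Untreated parental libraries had 1.01, 2.11 and 1.98 CPM and treated ones 2.70, 4.58 and 3.62 CPM. Untreated SDS22-degron libraries had 2.33, 3.30 and 3.49 CPM and treated ones 5.11, 6.97 and 5.93 CPM. As for AXIN2 and NKD1, the treated SDS22-degron libraries lay above all others and the untreated parental libraries below all others. SP5 rose 2.11-fold with Dox/IAA in parental cells (95% confidence interval 1.42 to 3.14, adjusted p = 0.005808) and 1.97-fold in SDS22-degron cells (1.43 to 2.72, adjusted p = 0.001197). These were the second largest rises of the list. SP5 was 1.77-fold higher in untreated SDS22-degron than in untreated parental cells (1.18 to 2.66, adjusted p = 0.03345). Between the treated lines it was 1.66-fold higher (1.20 to 2.27, adjusted p = 0.01100). Both differences between the lines depended on single libraries. The untreated difference was not called without parental replicate 1 (adjusted p = 0.155) or without SDS22-degron replicate 2 (0.1047) or 3 (0.1129). The treated difference was not called without parental replicate 1 (0.06983) or SDS22-degron replicate 2 (0.05592). The ratio of the Dox/IAA responses was 0.933 with a wide interval of 0.559 to 1.56 (adjusted p = 0.8877).

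TCF7, which encodes the DNA-binding partner of beta-catenin also known as TCF1, was the gene whose response to Dox/IAA differed between the lines. The gene lies on the plus strand at chr5:134114711-134151865. Untreated parental libraries had 32.8, 37.8 and 33.9 CPM, while treated parental libraries had 50.7, 59.9 and 57.8 CPM. Untreated SDS22-degron libraries had 52.9, 56.5 and 51.5 CPM and treated ones 54.5, 52.5 and 60.3 CPM. The untreated parental libraries stood below all others, and the other 3 groups overlapped. TCF7 rose 1.61-fold with Dox/IAA in parental cells (95% confidence interval 1.42 to 1.82, adjusted p = 1.45e-05), whereas in SDS22-degron cells the ratio was 1.04 (0.923 to 1.17, adjusted p = 0.5973). The difference of the responses was called, with an interaction of -0.63 on the log2 scale (SE 0.118, adjusted p = 0.001527). TCF7 was also 1.54-fold higher in untreated SDS22-degron than in untreated parental cells (1.36 to 1.74, adjusted p = 2.813e-05), and the ratio between the treated lines was 0.994 (0.882 to 1.12, adjusted p = 0.9397). TCF7 overlaps SKP1 on the opposite strand, a gene with 20571 counts over all libraries. The log2 fold changes of SKP1 were 0.12 for Dox/IAA in parental cells (adjusted p = 0.2278) and -0.07 between the untreated lines (adjusted p = 0.4982). SKP1 was called higher with Dox/IAA in SDS22-degron cells (0.22, adjusted p = 0.01486). Between the treated lines its value was 0.03 (adjusted p = 0.7373), and its interaction was 0.10 (adjusted p = 0.5416). The strand setting used in counting is not given in the sources used here, and the part of shared reads in the TCF7 values was not tested.

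The likeness of the 7 genes to AXIN2 over the 12 libraries was described by Pearson's r of log2 CPM, with no test because the libraries share the 4 groups. It was 0.95 for SP5, 0.91 for NKD1, 0.78 for ZNRF3, 0.76 for TCF7, 0.67 for NOTUM and -0.50 for RNF43. Among 10850 genes with a mean of at least 10 CPM, the 5 genes most like AXIN2 were ARHGEF40 (r = 0.97), STK17A (r = 0.97), INPP5A (r = 0.97), ANKLE2 (r = 0.97) and AMOT (r = 0.96). None of these 5 belongs to the list. ARHGEF40, for example, had 9.33 ± 1.36 CPM in untreated and 13.7 ± 0.868 CPM in treated parental cells, and 15.9 ± 1.24 CPM and 28.0 ± 2.06 CPM in SDS22-degron cells (SD, n = 3). The order of its groups was the same as for AXIN2.

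The other genes of the pathway were described as lists, ordered from the ligand to the nucleus, and the 3 genes of each list with the smallest p for Dox/IAA in SDS22-degron cells are named. The shares of all tested genes given above are the background of these counts, and the medians over all tested genes lay between -0.0056 and 0.0046. Of 25 genes for Wnt ligands, their secretion and R-spondins, 15 were tested. In untreated cells 7 were higher and 1 lower in SDS22-degron than in parental cells, and in treated cells 6 were higher and 1 lower. With Dox/IAA 7 rose and 2 fell in parental cells, and 8 rose and 2 fell in SDS22-degron cells. The median log2 fold change of the 15 was 0.53 and 0.39 between the untreated and the treated lines and 0.22 and 0.38 with Dox/IAA in parental and SDS22-degron cells. The ligand gene WNT6 was higher in SDS22-degron cells, by a log2 fold change of 2.76 in untreated (SE 0.339, adjusted p = 8.928e-06) and 2.75 in treated cells (SE 0.246, adjusted p = 8.632e-08). WNT6 rose with Dox/IAA by 1.25 in parental cells (adjusted p = 0.03016) and by 1.24 in SDS22-degron cells (adjusted p = 5.071e-05). Its level was low, between 0.412 and 0.760 CPM in untreated parental and between 8.36 and 10.95 CPM in treated SDS22-degron libraries. WNT10B fell with Dox/IAA in both lines, with log2 fold changes of -1.85 in SDS22-degron cells (adjusted p = 1.361e-08) and -0.70 in parental cells (adjusted p = 0.001063). The fall was larger in SDS22-degron cells, with an interaction of -1.15 (adjusted p = 0.001074). WNT16, with 73.2 to 157 CPM over all libraries, fell as well, with log2 fold changes of -0.73 in parental (adjusted p = 1.739e-05) and -0.68 in SDS22-degron cells (adjusted p = 7.158e-06).

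Of 20 genes for Frizzled, LRP and other Wnt receptors and for Dishevelled, 17 were tested. Between the lines, 6 were higher and 4 lower in untreated SDS22-degron cells, and 9 were higher and 5 lower in treated ones. With Dox/IAA 7 rose and 2 fell in parental and 10 rose and 2 fell in SDS22-degron cells. The median log2 fold change of the 17 was 0.14 and 0.32 between the untreated and the treated lines and 0.19 and 0.31 with Dox/IAA in parental and SDS22-degron cells. The genes named by the rule went in opposite directions with Dox/IAA. ROR1, a receptor of non-canonical Wnt signalling, fell with Dox/IAA, with log2 fold changes of -1.49 in parental cells (adjusted p = 8.565e-07) and -1.13 in SDS22-degron cells (adjusted p = 1.764e-06). FZD6 rose by 0.22 (adjusted p = 0.02828) and 0.58 (adjusted p = 3.51e-06), with an interaction of 0.36 (adjusted p = 0.02576). DVL3, a Dishevelled gene, rose by 0.30 (adjusted p = 0.002874) and 0.56 (adjusted p = 3.401e-06), while its interaction was not called (0.25, adjusted p = 0.09996). Both FZD6 and DVL3 were lower in SDS22-degron than in parental cells when untreated, with log2 fold changes of -0.62 (adjusted p = 7.036e-06) and -0.46 (adjusted p = 8.974e-05). Between the treated lines they were lower as well, by -0.26 (adjusted p = 0.007294) and -0.21 (adjusted p = 0.01986).

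All 15 genes for beta-catenin and its destruction complex were tested. In untreated cells 3 were higher and 4 lower in SDS22-degron cells, and in treated cells 2 were higher and 2 lower. With Dox/IAA 7 rose and 1 fell in parental, and 8 rose and 1 fell in SDS22-degron cells. The 15 had a median log2 fold change of 0.07 and 0.09 between the untreated and the treated lines and 0.12 and 0.16 with Dox/IAA in parental and SDS22-degron cells. The interaction was called by edgeR for 0 of the 15, and 2 were higher at an unadjusted p under 0.05. In SDS22-degron cells the tankyrase gene TNKS2 rose by 0.46 on the log2 scale (adjusted p = 3.82e-05), the casein kinase gene CSNK1D by 0.39 (adjusted p = 5.012e-05) and the kinase gene GSK3B by 0.36 (adjusted p = 0.0001542). CTNNB1, the beta-catenin gene itself, was looked up after the values were seen. It had 419 to 488 CPM in untreated parental, 533 to 566 CPM in treated parental, 332 to 339 CPM in untreated SDS22-degron and 408 to 447 CPM in treated SDS22-degron libraries. CTNNB1 mRNA was thus lower in SDS22-degron than in parental cells, with log2 fold changes of -0.44 in untreated (SE 0.0659, adjusted p = 7.134e-05) and -0.35 in treated cells (SE 0.0657, adjusted p = 0.0002870). It rose with Dox/IAA by 0.26 in parental (adjusted p = 0.005128) and 0.35 in SDS22-degron cells (adjusted p = 0.0002070). Protein levels of beta-catenin were not analysed here.

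Of 13 genes for nuclear partners of beta-catenin, 10 were tested. Between the lines, 2 were higher and 5 lower in untreated and 2 higher and 4 lower in treated SDS22-degron cells. With Dox/IAA 3 rose and 2 fell in parental, and 5 rose and 1 fell in SDS22-degron cells. The 10 had a median log2 fold change of -0.17 and -0.03 between the untreated and the treated lines and 0.0023 and 0.18 with Dox/IAA in parental and SDS22-degron cells. TLE2, a Groucho co-repressor, was higher in SDS22-degron cells by 0.68 on the log2 scale in untreated (adjusted p = 0.0002700) and 0.75 in treated cells (adjusted p = 2.717e-05), and it rose with Dox/IAA by 0.41 in parental (adjusted p = 0.01243) and 0.49 in SDS22-degron cells (adjusted p = 0.001149). CTNNBIP1, an inhibitor of the binding of beta-catenin to TCF proteins, rose by 0.32 (adjusted p = 0.005737) and 0.35 (adjusted p = 0.001342). The TCF family member TCF7L1 rose by 0.27 in SDS22-degron cells (adjusted p = 0.01282), with a value of 0.20 in parental cells (adjusted p = 0.08889).

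Of 17 further secreted or membrane inhibitors of the pathway, 6 were tested. In untreated cells 2 were higher and 2 lower in SDS22-degron cells, and in treated cells 3 were higher and 1 lower. With Dox/IAA 3 rose and 0 fell in parental, and 2 rose and 0 fell in SDS22-degron cells. At an unadjusted p under 0.05 of the edgeR test, 0 fell in either line as well. Over the 6, the median log2 fold change was 0.22 and 0.25 between the untreated and the treated lines and 0.18 and -0.0035 with Dox/IAA in parental and SDS22-degron cells. DKK1, a secreted antagonist of LRP co-receptors and itself a known beta-catenin target, differed most between the lines among the 3 genes named here. It had 121 to 141 CPM in untreated and 153 to 211 CPM in treated parental cells, and 621 to 635 CPM and 521 to 589 CPM in SDS22-degron cells. DKK1 was higher in SDS22-degron cells by 2.305 on the log2 scale in untreated (SE 0.0970, adjusted p = 8.853e-12) and by 1.64 in treated cells (SE 0.0945, adjusted p = 6.534e-10). It rose by 0.51 with Dox/IAA in parental cells (adjusted p = 0.0005823), with a value of -0.16 in SDS22-degron cells (adjusted p = 0.1567) and an interaction of -0.67 (adjusted p = 0.002244). KREMEN1, a receptor of DKK1, rose by 0.52 (adjusted p = 0.0001399) and 0.63 (adjusted p = 4.092e-06) in parental and SDS22-degron cells. TPBG, which encodes a membrane inhibitor of Wnt signalling, rose by 0.44 (adjusted p = 0.002498) and 0.95 (adjusted p = 3.953e-07), with an interaction of 0.51 (adjusted p = 0.02177).

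Of 16 other genes known as beta-catenin targets, 12 were tested, and their calls went in both directions in every comparison. With Dox/IAA 2 rose and 4 fell in parental, and 4 rose and 2 fell in SDS22-degron cells. Between the lines, 3 were higher and 2 lower in untreated and 7 higher and 1 lower in treated SDS22-degron cells. Over the 12, the median log2 fold change was 0.22 and 0.43 between the untreated and the treated lines and -0.12 and 0.20 with Dox/IAA in parental and SDS22-degron cells. The interaction was called for 3 of the 12 upwards and for 1 downwards. MYC, the proto-oncogene, fell with Dox/IAA, with log2 fold changes of -1.18 in parental (SE 0.125, adjusted p = 2.66e-06) and -1.30 in SDS22-degron cells (SE 0.126, adjusted p = 1.374e-07). Its levels were 413 to 537 CPM and 369 to 395 CPM in untreated and 161 to 250 CPM and 136 to 167 CPM in treated parental and SDS22-degron cells, without overlap. EPHB3, a receptor tyrosine kinase of the crypt, rose by 0.90 (adjusted p = 0.0005721) and 1.11 (adjusted p = 7.676e-06). SOX9, a transcription factor of crypt progenitors, rose by 0.36 in SDS22-degron cells (adjusted p = 0.002370), with a value of -0.14 in parental cells (adjusted p = 0.2465) and an interaction of 0.51 (adjusted p = 0.01188). Among 12 markers of intestinal differentiation, 2 were tested. KRT20 fell with Dox/IAA, with log2 fold changes of -0.94 in parental (adjusted p = 0.01037) and -0.95 in SDS22-degron cells (adjusted p = 0.0004073), and was higher in SDS22-degron cells by 1.38 in untreated (adjusted p = 5.458e-05) and 1.37 in treated cells (adjusted p = 0.0001995). CA2 fell by 0.62 on the log2 scale in SDS22-degron cells (adjusted p = 0.0001071), with a value of -0.20 in parental cells (adjusted p = 0.1520).

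**Figure D3:**
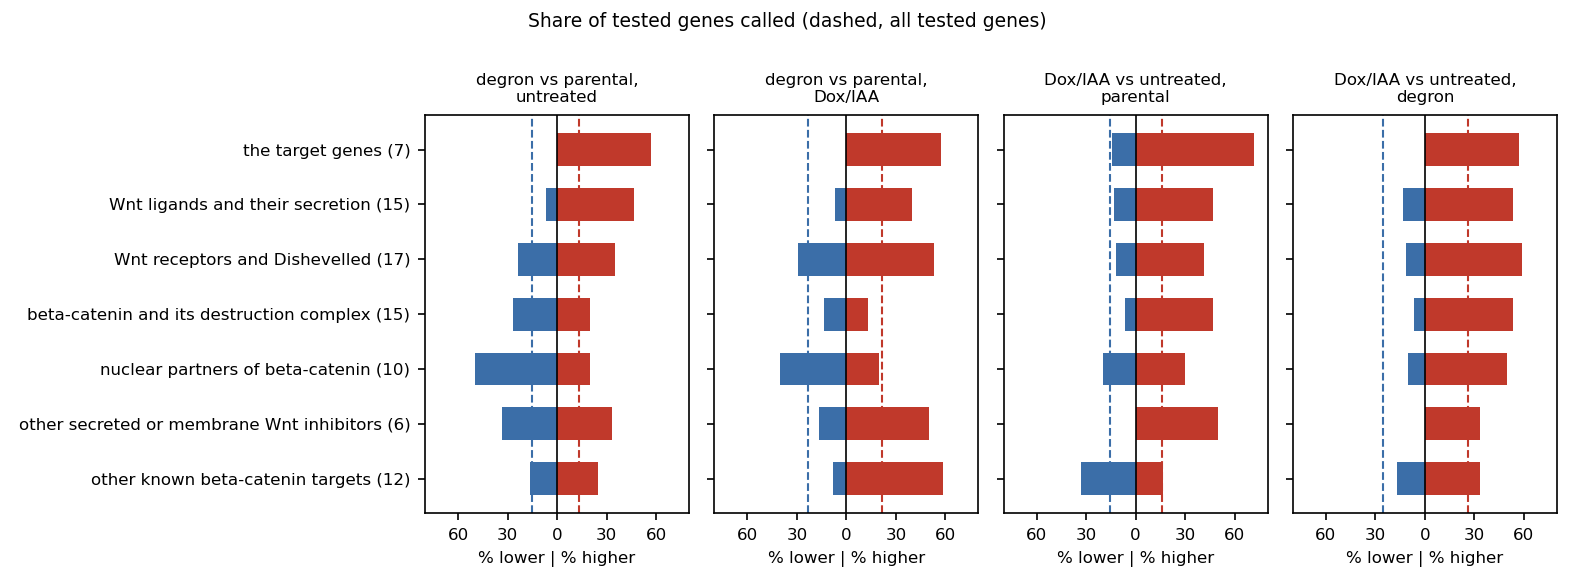
Share of the tested genes of each list that were called higher (red, to the right) or lower (blue, to the left) in 4 comparisons, as a percent of the tested genes, whose number is in brackets. Dashed lines give the shares over all 16657 tested genes. Of the 7 target genes, 4 were higher and 0 lower in both comparisons between the lines. Of the 12 other known targets, 3 were higher and 2 lower between the untreated lines. Between the treated lines, 7 of these 12 were higher and 1 lower. With Dox/IAA in parental cells, 5 of the 7 target genes rose and 1 fell, while 2 of the 12 other targets rose and 4 fell.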

How the data were processed

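RNA-seq was carried out on 12 libraries of HCT116 cells, and groups and replicate numbers were taken from the labels. The libraries were poly-A selected and stranded, and were read as 75 bp single reads. For each library the authors deposited the raw count of reads on each gene, without normalization, and the deposited table also gives the position, the length and the GC content in percent of each gene. The submitters' processing notes name cutadapt 1.15, Bowtie2 2.3.3.1, STAR 2.5.2b, SAMtools 1.5, featureCounts 1.5.3 and GRCh38, while the strand setting of the counting is not given in the sources used here. The positions of all 10 members overlapped those of RefSeq GRCh38.p14, from which the promoter windows were taken.

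The members were matched by symbol. Members and pathway lists were chosen with earlier results of these data known. After a filter on low counts (filterByExpr by group, minimum count 10), 16657 of 58233 genes remained. TMM normalization was followed by a fit in edgeR 4.0.16 (R 4.3.3) with 1 mean for each of the 4 groups. Each comparison used the quasi-likelihood F test with Benjamini-Hochberg adjustment over all tested genes and a threshold of 0.05. The standard error was the absolute log2 fold change divided by the square root of F, and gave the 95% confidence intervals. Folds and ratios in the text are fitted values. A prior count of 2 was added before log2 CPM was correlated. The labels do not say what a replicate number shares, so the pairing was checked by the correlation of deviations from the group means. Of same-numbered pairs, 3 of 3 were above 0.1 for Dox/IAA in parental cells (0.12 to 0.25) and between the treated lines (0.10 to 0.14). Between the untreated lines 1 of 3 was above 0.1, and for Dox/IAA in SDS22-degron cells 0 of 3. Unless an alternative is named, all values come from the fit without pairing. A block for the replicate number was one of the alternatives. Of different-numbered pairs, 0 of 36 were above 0.1. Limits from counts of 0 cover counting error only. The precision at this depth is given by the median standard error of all tested genes, which was 0.11 on the log2 scale for a comparison of groups and 0.16 for the interaction.

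Every member is named, tested or not, and from each list the 3 tested genes with the smallest p for Dox/IAA in SDS22-degron cells. Alternatives were the likelihood ratio test of edgeR, DESeq2 1.42.0, scaling by library size alone, upper quartile scaling, no filter, a stricter filter (1 CPM), a fit to the compared groups alone, a block for the replicate number, a GC correction with and without that block, the cut-off of the study and the omission of each library. The procedure was run on simulated counts with planted changes in treated SDS22-degron cells and the same spread for all genes. Far fewer genes were changed there than were called here. The simulation, whose outcome is not given, therefore does not check the fit at the shares called here.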

Additional observations from a re-analysis of the deposited data

Results flagged for a closer look

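The response of TCF7 to Dox/IAA differed between the lines. The interaction of line and Dox/IAA was -0.63 on the log2 scale (SE 0.118, adjusted p = 0.001527, edgeR quasi-likelihood F test). TCF7 was higher in 3 of 3 treated than in all untreated parental libraries, whereas treated and untreated SDS22-degron libraries overlapped. The difference kept its direction and its call in 21 of 21 alternative fits, with values between -0.72 and -0.57 and adjusted p of 0.00726 or less. Of all tested genes, 8.35% were called in this direction.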

How the results depend on the processing

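The counts of members called changed by more than 1.5 times with the cut-off alone. The cut-off of the study (unadjusted p under 0.05, absolute log2 fold change above 1) was applied to the quasi-likelihood F test. With it, 0 members were called between the treated lines, 0 between the untreated lines and 0 in the interaction. For Dox/IAA, 2 were called in parental cells and 1 in SDS22-degron cells. Under the other alternatives, each library left out included, these counts stayed within 1.5 times those reported. Of 595 single values of members, 549 kept their direction and their side of the threshold, 17 lost and 6 gained a call, and 23 turned their direction, all of which were values not called. TCF7 between the treated lines was 0.0014 with DESeq2, 0.022 with the upper quartile and 0.0006 with only the groups compared, and NOTUM in the interaction was -0.0072 with library size only. With each library left out, the ranges were -0.084 to 0.057 for TCF7 and -0.19 to 0.057 for RNF43 between the treated lines, -0.098 to 0.11 for ZNRF3 in parental cells, -0.020 to 0.097 for TCF7 in SDS22-degron cells, -0.31 to 0.15 for SP5 and -0.12 to 0.20 for NOTUM in the interaction. RNF43 was called lower in untreated SDS22-degron cells without the filter (adjusted p = 0.02461) or with only the groups compared (0.02092). The rise of AXIN2 in parental cells was not called with only the groups compared (0.05586), and the fall of RNF43 there was not called with library size only (0.09589), the upper quartile (0.06036) or the GC correction (0.05796). The causes were not tested. With library size only, 64.1% of the genes called for Dox/IAA in parental cells were higher, against 50.5%.

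In 26 of 36 cases a library correlated best with its own number in another group. With the replicate number as a block, 4 members were called between the treated lines and 5 between the untreated lines. There 48.2% and 32.3% of all tested genes were called, in either direction. For Dox/IAA, 6 members were called in parental and 4 in SDS22-degron cells, against 35.9% and 54.5% of all tested genes. The interaction was called for 1 member, against 18.8% of all tested genes. ZNRF3 between the untreated lines was the only call gained under the block (log2 fold change 0.26, adjusted p = 0.04316), also with the GC correction (0.0499), and 0 were lost. LEF1, ASCL2 and LGR5 did not pass the filter on low counts and were not tested.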
